A study of Arabidopsis thaliana with 6 samples.

Results

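The XTH family of Arabidopsis thaliana was followed gene by gene in whole seedlings of 2 genotypes, wild-type Col-0 and the mutant rns2-2. The family was taken as every locus whose symbol is XTH followed by a number and that has a probe set assigned to it alone. Of 30 loci with such a symbol, 9 met this condition: XTH16, XTH18, XTH19, XTH20, XTH21, XTH26, XTH29, XTH32 and XTH33. They are 9 of 13286 loci measured by a single-locus probe set, and the other 21 XTH loci were not analysed here. Each of the 9 had 1 such probe set, so no choice between probe sets was made.

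Xyloglucan endotransglucosylase/hydrolases are secreted enzymes that act on xyloglucan, a polysaccharide of the plant cell wall that coats and tethers cellulose microfibrils. They cut a xyloglucan chain and join the cut end to another chain, or, in some members, to water. The first reaction lets new wall material be built in and the wall be rearranged while cells expand, and the second shortens the chains. Family members are known for differing in tissue and in their response to hormones, light and touch.

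Both groups were 10-day-old seedlings in the Col-0 background, raised on MS-agar at 21 °C with 16 hours of light a day. Col-0 was the wild type, and rns2-2 carries a mutant allele of RNS2, which encodes an RNase T2 enzyme known to act in the turnover of ribosomal RNA. The labels list no treatment and no further allele in either group, and they do not describe the lesion in rns2-2. Each genotype had 3 Affymetrix ATH1 arrays, called independent biological samples by the submitters, who mention 20 seedlings without saying whether that is the number per sample. No probe set was paired with RNS2, so the mutation was not checked at its own gene. The samples are whole seedlings, so a lower signal from fewer cells of a type and from less RNA per cell cannot be told apart.

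The values are log2 signals, which ran from 3.21 to 14.49, with array medians from 6.51 to 6.66. No detection calls were used, so the level at which signal stands out from background is not known, and a dim signal may be background. Replicates 2 and 3 lay close together in each genotype, and replicate 1 stood apart in both. The SD of the log2 difference over all probe sets was 0.20 between replicates 2 and 3 of Col-0 and 0.31 between those of rns2-2, against 0.58 to 0.61 for the pairs with replicate 1 of the same genotype. Whether the close replicates came from wholly separate material was not tested, and p-values from those arrays alone may measure a partly technical spread. The family counts and each XTH gene are therefore also given without replicate 1. Photosystem and antenna genes, 8 nuclear loci picked after the data were seen as a sign of green tissue, had array means from 12.42 to 12.88. The root marker PYK10 had a mean of 12.54 ± 0.16 in the Col-0 arrays and 12.74 ± 0.14 in those of rns2-2 (log2, SD, n = 3). The other measured root markers, EXPA7 and EXPA18, had means over the 6 arrays of 5.92 and 5.89, below the array medians. A signal of root tissue thus rests on PYK10 alone, and that of shoot tissue on genes picked after the data were seen.

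The comparison of rns2-2 with Col-0 asked which genes differed between the genotypes. None of the 9 XTH genes passed the test at an adjusted p of 0.05 (limma, Benjamini-Hochberg over 22746 probe sets), where 0.00440% of all probe sets did. XTH16 and XTH20 had higher values in all 3 rns2-2 arrays than in any Col-0 array, 1.59-fold and 1.80-fold by their means, and XTH19 had the widest mean difference, 2.25-fold, with overlap. XTH18 and XTH29 had lower means in rns2-2. In all, 7 of the 9 genes had a log2 difference above 0, as did 42.8% of all probe sets, and the median was 0.25 over the 9 and -0.04 over all probe sets. This count and median moved with 1 array: without replicate 1 of rns2-2, 5 of the 9 were above 0 with a median of 0.04, beside 44.8% and -0.03 for all probe sets. Over replicates 2 and 3 of both genotypes, they were 6 of the 9 and 0.07, beside 42.3% and -0.06. Before adjustment, 2 of the 9 had a limma p under 0.05, both with higher values, against 10.7% of all probe sets in either direction and 5.35% with higher values.

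The genotypes did not overlap at 4 of the 9 genes, XTH16, XTH20 and XTH21 with higher and XTH29 with lower values in rns2-2, where 18.5% of all probe sets did not overlap, 7.23% with higher and 11.2% with lower values. These separations were narrow. The gap between the nearest arrays of the genotypes was 0.10 log2 units for XTH16, 0.09 for XTH20, 0.03 for XTH29 and 0.02 for XTH21. Without replicate 1 of rns2-2, 6 of the 9 and 35.6% of all probe sets had no overlap, and with replicates 2 and 3 only 8 of the 9 and 59.5%. Fewer arrays overlap less often, and replicates 2 and 3 also lay close together in each genotype. The part of each in these shares was not tested.

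**Figure D1:**
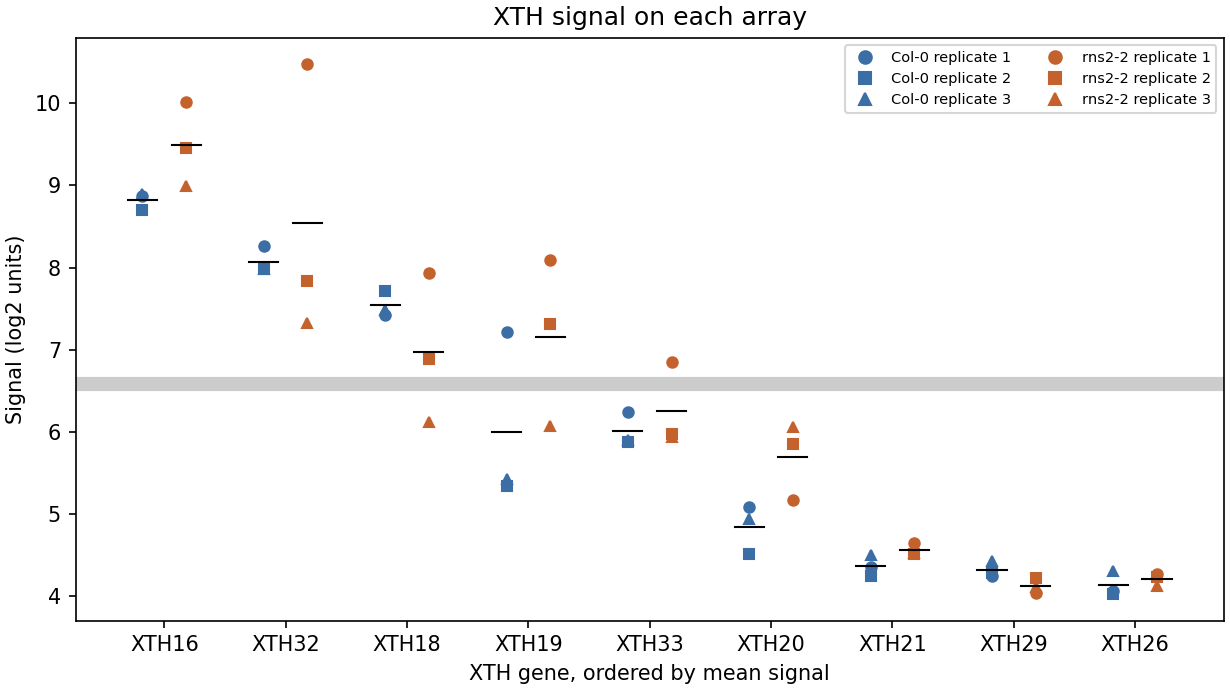
Log2 signal (vertical axis) of each XTH gene on each of the 6 arrays, with genes ordered by mean signal; blue marks are Col-0, orange marks rns2-2, mark shapes are replicate numbers, black lines are means and the grey band spans the array medians (6.51 to 6.66). XTH16, XTH32 and XTH18 lie mostly above the band, XTH20, XTH21, XTH26 and XTH29 below it on all arrays, and replicate 1 of rns2-2 is the highest array for 6 of the 9 genes.

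XTH16, linked in the literature to petiole growth in shade, gave the brightest of the 9 probe sets. Its log2 signals were 8.87, 8.70 and 8.89 in Col-0 replicates 1 to 3 and 10.01, 9.45 and 9.00 in rns2-2 replicates 1 to 3. The Col-0 arrays lay within 0.20 of each other, and the rns2-2 arrays were spread over 1.01, with replicate 3 just above Col-0. The mean difference was 0.67 (SE 0.26, 95% interval 0.04 to 1.29, limma adjusted p = 0.449). With replicates 2 and 3 only it was 0.43, in replicate 1 alone 1.14, and with only replicate 1 of rns2-2 left out 0.40 (limma adjusted p = 0.387).

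XTH20, a gene expressed in the vascular tissue of the root, had a different pattern among the rns2-2 arrays. Its log2 signals were 5.09, 4.52 and 4.94 in the Col-0 arrays and 5.18, 5.86 and 6.06 in the rns2-2 arrays. All 6 lay below the array medians, and replicate 1 of rns2-2, the highest array for XTH16, was here the lowest of its genotype. The mean difference was 0.85 (SE 0.27, 95% interval 0.19 to 1.51, limma adjusted p = 0.392). In replicate 1 alone the difference was 0.09. With replicates 2 and 3 only it was 1.23 (SE 0.18) and passed the threshold (limma adjusted p = 0.00341), in a fit where 14.3% of all probe sets passed. When the close replicates were averaged first, so that each genotype had 2 samples, it was 0.66 and did not pass (limma adjusted p = 0.935). No probe set at all passed in that averaged fit, so not passing there is not particular to XTH20.

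XTH19 and XTH18 are neighbouring genes in the gene table, with XTH24 on the other side of XTH18, and both are known to be expressed in the growing root. XTH19 had log2 signals of 7.22, 5.34 and 5.42 in the Col-0 arrays and 8.10, 7.31 and 6.07 in the rns2-2 arrays. Col-0 replicate 1 lay inside the range of rns2-2, while the other Col-0 arrays lay below all 3 rns2-2 arrays. The mean difference of 1.17 had an SE of 0.69 and a 95% interval from -0.51 to 2.85 (limma adjusted p = 0.569). Replicate 1 was the highest array of both genotypes for XTH19. Without replicate 1 of Col-0 the difference was 1.78 (limma adjusted p = 0.223), and without replicate 1 of rns2-2 it was 0.70 (limma adjusted p = 0.677).

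XTH18 had log2 signals of 7.42, 7.72 and 7.48 in the Col-0 arrays and 7.93, 6.88 and 6.12 in the rns2-2 arrays. The Col-0 arrays were close together and lay between replicate 1 of rns2-2, above them, and the remaining rns2-2 arrays, below them. The mean difference was -0.56 (SE 0.44, 95% interval -1.63 to 0.50, limma adjusted p = 0.642). Leaving out replicate 1 of rns2-2 moved it to -1.04 (limma adjusted p = 0.192), and leaving out replicate 3 of rns2-2 moved it to -0.13 (limma adjusted p = 0.904). With replicates 2 and 3 only, the difference was -1.10 (SE 0.24, limma adjusted p = 0.0203) for XTH18 and 1.31 (SE 0.34, limma adjusted p = 0.0381) for XTH19. These neighbouring genes thus had opposite signs in that fit, and together with XTH20 they were the 3 of 9 family members past its threshold, which 14.3% of all probe sets passed. After averaging of the close replicates, the differences were -0.29 for XTH18 and 1.095 for XTH19, and neither passed (limma adjusted p = 0.947 and 0.935). Nor did any other probe set pass in that averaged fit.

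The difference between the genes within an array, XTH19 minus XTH18, was -0.20, -2.38 and -2.06 log2 units in Col-0 and 0.17, 0.43 and -0.05 in rns2-2. It was higher in every rns2-2 array than in any Col-0 array, although Col-0 replicate 1 came within 0.15 of rns2-2 replicate 3. The mean was -1.55 ± 1.18 in Col-0 and 0.18 ± 0.24 in rns2-2 (SD, n = 3 each; difference 1.73). This pair was set side by side after the values were seen, so the difference is a description without a test, and the offset between the probe sets does not compare the amounts of their transcripts.

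**Figure D2:**
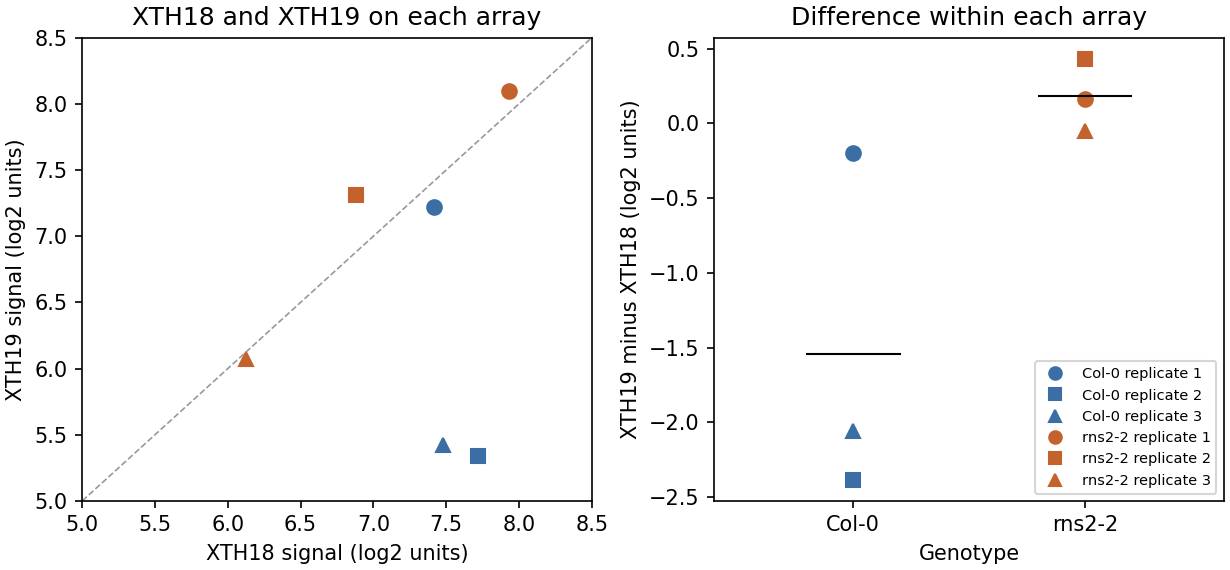
Left, log2 signal of XTH18 (horizontal axis) against XTH19 (vertical axis) on each array, with a dashed line of equal values; right, XTH19 minus XTH18 in log2 units for each array by genotype, with black lines for the means. The rns2-2 arrays (orange) lie near the line, and Col-0 replicates 2 and 3 (blue square and triangle) lie about 2.38 and 2.06 below it, with Col-0 replicate 1 at -0.20.

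XTH32, of the small subgroup of the family in which xyloglucan hydrolysis has been shown, had a mean difference set by 1 array. Its log2 signals were 8.26, 7.98 and 7.99 in the Col-0 arrays and 10.48, 7.84 and 7.32 in the rns2-2 arrays. Replicate 1 of rns2-2 lay above all other arrays, and the remaining rns2-2 arrays lay below all of Col-0. The mean difference of 0.47 had an SE of 0.80 (95% interval -1.46 to 2.41, limma adjusted p = 0.831). Without replicate 1 of rns2-2 it was -0.49 (SE 0.20, limma adjusted p = 0.362), the opposite sign. Replicate 1 of rns2-2 was 2.89 above the mean of replicates 2 and 3 for XTH32, a wider gap than for 99.5% of all probe sets.

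XTH33, a member that carries a membrane anchor, showed the same array on top. Its log2 signals were 6.24, 5.87 and 5.90 in the Col-0 arrays and 6.86, 5.98 and 5.94 in the rns2-2 arrays. Replicates 2 and 3 of the genotypes differed little, and replicate 1 was the highest array in each. The mean difference was 0.25 (SE 0.27, 95% interval -0.41 to 0.92, limma adjusted p = 0.729), and without replicate 1 of rns2-2 it was -0.05 (limma adjusted p = 0.910). In replicate 1 alone it was 0.62, and with replicates 2 and 3 only 0.07.

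The remaining genes gave signals near the low end of the arrays, with means under the 25th percentile of all probe sets (4.78). XTH21, which acts in root growth, had log2 signals of 4.35, 4.25 and 4.50 in the Col-0 arrays and 4.65, 4.51 and 4.52 in the rns2-2 arrays. The mean difference was 0.19 (SE 0.11, 95% interval -0.07 to 0.46, limma adjusted p = 0.551). XTH29, known for induction by heat and drought, had 4.25, 4.28 and 4.43 in the Col-0 arrays and 4.05, 4.22 and 4.12 in the rns2-2 arrays. Its mean difference was -0.19 (SE 0.11, 95% interval -0.45 to 0.07, limma adjusted p = 0.546). For XTH26, a gene of root hairs, the log2 signals ran from 4.02 to 4.31 in Col-0 and from 4.12 to 4.27 in rns2-2, and the difference was 0.07 (SE 0.12, 95% interval -0.21 to 0.36, limma adjusted p = 0.819). With replicates 2 and 3 only, the differences of XTH21, XTH29 and XTH26 were 0.14, -0.18 and 0.01. The 95% intervals of these genes over all arrays hold no difference beyond 0.46 in either direction, on a scale that compresses changes where signals are close to background.

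**Figure D3:**
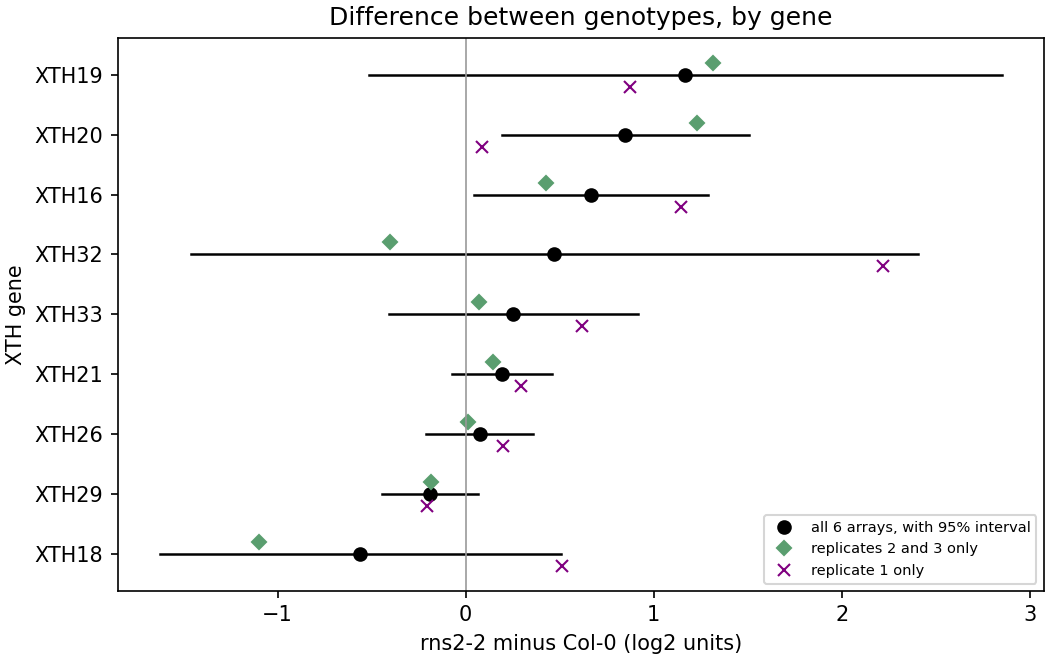
Difference between genotypes in log2 units (horizontal axis, rns2-2 minus Col-0) for each XTH gene: black circles and lines are the limma estimate over all 6 arrays with its 95% interval, green diamonds replicates 2 and 3 only, purple crosses replicate 1 only. XTH16 and XTH20 have intervals above 0 before adjustment, while XTH32 (-0.40 and 2.22) and XTH18 (-1.10 and 0.51) change sign between replicates 2 and 3 and replicate 1.

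Replicate 1 of rns2-2 was the highest of the 6 arrays for XTH16, XTH18, XTH19, XTH21, XTH32 and XTH33, or 6 of 9 genes, and for 16.5% of all probe sets. The mean signal of the 9 genes was 6.83 on that array and 6.26 and 5.92 on the other rns2-2 arrays, beside 6.20, 5.85 and 5.99 in Col-0. The mean of the 3 measured root markers, of 10 listed, was also highest there, at 8.72, and ran from 7.76 to 8.37 on the other arrays. PYK10 alone was 12.83 there and 12.81 on replicate 2 of rns2-2. The mean of the 8 photosystem and antenna genes was highest on the same array too, at 12.88, against 12.42 to 12.84 on the others. Not all of these genes shared this: LHCB4.1, LHCB4.2 and PSBW were highest on other arrays. LHCB4.3 was 9.75 on replicate 1 of rns2-2 and 8.03 and 8.40 on the other rns2-2 arrays. The 3' minus 5' difference of the actin, GAPDH and ubiquitin control probe sets is a sign of RNA quality. It was lowest on replicate 1 of rns2-2, at 0.79 log2 units. On the other arrays it ran from 1.17 to 2.43, with the highest value on Col-0 replicate 1. The part of these differences between arrays in the XTH values was not tested.

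One further locus carries an XTH number as a synonym and has a single-locus probe set: EXGT-A3, or XTH27, an enzyme known from the water-conducting cells of leaf veins. Its log2 signals were 11.74, 11.73 and 11.81 in the Col-0 arrays and 11.54, 11.06 and 10.75 in the rns2-2 arrays. Every rns2-2 array lay below every Col-0 array, as at 11.2% of all probe sets, with a gap of 0.18 between the nearest arrays. The mean difference was -0.64, or 1.56-fold lower (SE 0.21, 95% interval -1.14 to -0.14, limma adjusted p = 0.397). The difference was -0.87 with replicates 2 and 3 only and -0.19 in replicate 1.

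The genes that make xyloglucan or loosen walls beside the XTH enzymes were described from lists chosen by function, with earlier results of these data known. A gene counted as measured if it had a single-locus probe set in the platform's probe table. Named below are up to 4 genes per list with the smallest unadjusted limma p in these data. Their separation between genotypes thus follows in part from selection. Of 15 genes of xyloglucan synthesis, the 5 CSLC genes, which encode synthases of the xyloglucan backbone, were measured. All 5 had differences above 0, with a median of 0.28, and 0 passed the adjusted test. Over all probe sets, 42.8% were above 0 with a median of -0.04, and 0.00440% passed. The genotypes did not overlap at 1 of the 5 genes and at 18.5% of all probe sets. Over replicates 2 and 3 alone, 4 of the 5 were above 0 and the median was 0.13, beside 42.3% and -0.06 for all probe sets. CSLC6 had a mean of 6.90 ± 0.10 in the Col-0 arrays and 7.52 ± 0.11 in those of rns2-2 (log2, SD, n = 3), with no overlap and a difference of 0.61 (SE 0.11, limma adjusted p = 0.281). The differences of ATCSLC08, CSLC5 and CSLC04 were 0.36 (SE 0.22), 0.28 (SE 0.20) and 0.09 (SE 0.14), each with overlap between the genotypes. CSLC5 differed by 0.76 in replicate 1 and by 0.04 with replicates 2 and 3 only, and ATCSLC08 by -0.12 and 0.60.

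Of 26 alpha-expansins, which loosen walls without cutting xyloglucan, 10 were measured, 8 with differences above 0 and a median of 0.30, and 0 passed the adjusted test. The genotypes did not overlap at 2 of the 10. Over all probe sets, 42.8% were above 0, 18.5% did not overlap and 0.00440% passed. Without replicate 1 of either genotype, 5 of the 10 were above 0 and the median was 0.23, beside 42.3% and -0.06 for all probe sets. EXPA15 and EXPA4 differed by 1.25 (SE 0.17) and 1.63 (SE 0.24) without overlap, and EXPA8 and EXPA20 by 0.98 (SE 0.52) and 0.27 (SE 0.19) with overlap. EXPA8 and EXPA20 differed by -0.19 and -0.15 in replicate 1 and by 1.56 and 0.49 with replicates 2 and 3 only. Of 10 beta-expansins and expansin-like genes, 8 were measured, 3 with differences above 0 and a median of -0.09, and 0 passed. The genotypes did not overlap at 4 of the 8, beside the same 18.5% of all probe sets. Here replicates 2 and 3 alone gave 4 of the 8 above 0 and a median of 0.03. Of these, EXPB3 had a mean of 7.50 ± 0.32 in the Col-0 arrays and 8.86 ± 0.34 in those of rns2-2 (log2, SD, n = 3; difference 1.36, SE 0.23, limma adjusted p = 0.277). The differences of EXPB1, EXPB2 and EXLA1 were 0.92 (SE 0.38), -0.25 (SE 0.09) and -1.04 (SE 0.12), each without overlap. Their gaps between the nearest arrays of the genotypes were 0.08, 0.16 and 0.87. EXPB1 and EXPB2 lay below the array median on every array. EXPB1 differed by 1.58 in replicate 1 and by 0.60 with replicates 2 and 3 only. Among root markers, PYK10, EXPA18 and EXPA7 differed by 0.11 to 0.25, with overlap, and by 0.11, -0.03 and -0.54 with replicates 2 and 3 only. The lists for xyloglucan trimming, cellulose synthesis, brassinosteroids, touch and wounding, and shoot markers had no member with a single-locus probe set in the probe table. That table leaves out 8730 probe sets, so the arrays may still carry probes for these genes.

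**Figure D4:**
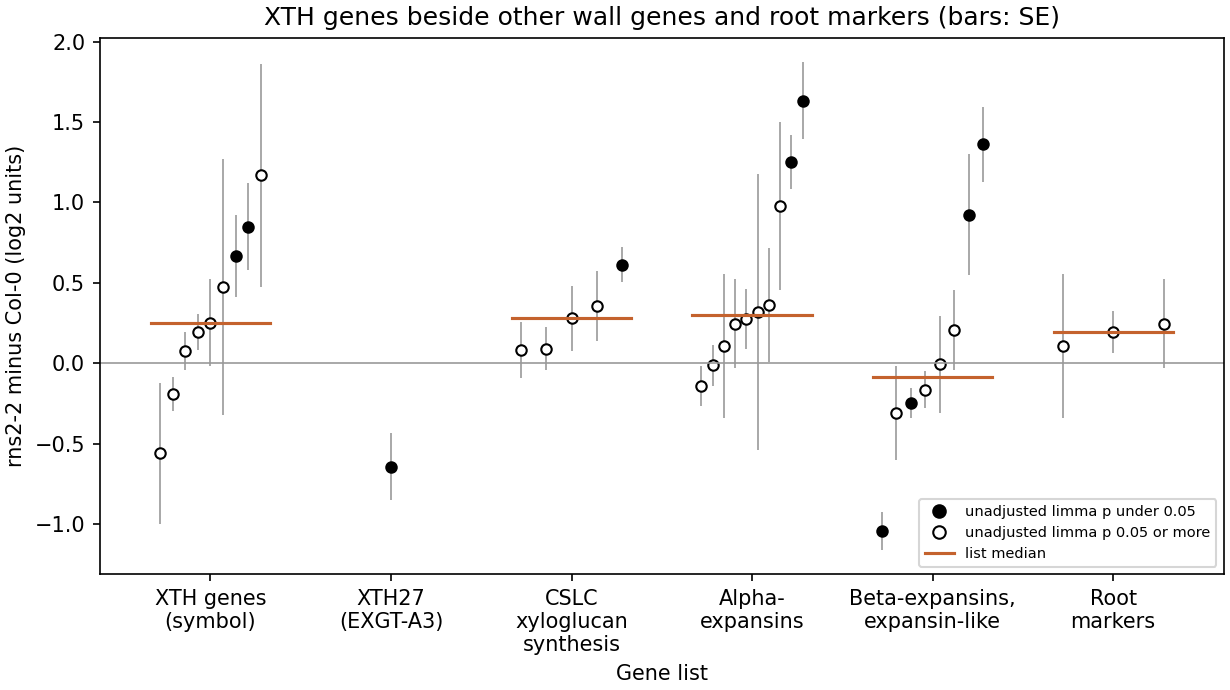
Difference between genotypes in log2 units (vertical axis, rns2-2 minus Col-0) for each measured gene of the XTH family, XTH27 and other lists (horizontal axis); bars are limma standard errors, filled marks have an unadjusted limma p under 0.05 and orange lines are list medians. The medians are 0.25 for the XTH genes, 0.28 for the CSLC genes, 0.30 for alpha-expansins and -0.09 for beta-expansins and expansin-like genes, all over the 6 arrays, and no gene shown passed the adjusted test.

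The profiles most like those of XTH16 and XTH20 were sought among named probe sets brighter than the median, by the root mean square difference over the 6 arrays after centring each profile on its own mean. For XTH16, 5985 candidates were compared, and the nearest were AT4G38080 (0.10 log2 units), AT1G12500 (0.12) and AT2G25980 (0.12). For XTH20, with 5986 candidates, they were AT5G44400 (0.09), the serine carboxypeptidase-like gene scpl50 (0.10) and AT3G56480 (0.13). Likeness over 6 arrays describes these arrays only, and the genotype differences of these genes follow from their selection.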

How the data were processed

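The deposited values are log2 signals, 1 per probe set and array, which the authors computed with Affymetrix Expression Console according to the submitters' processing notes. The log2 scale was read from the values. Which algorithm and version were used, and whether arrays were normalized to each other, is not given in the sources used here. Per the labels' protocols, 250 ng of total RNA was labelled with a kit that amplifies from 3' ends.

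Of 22810 probe sets, 64 Affymetrix controls were left out. Names came from the platform's probe table, updated by Entrez identifier from RefSeq genes (TAIR10.1), used for names and neighbouring genes only. It gave 13436 probe sets 1 locus each and 503 several; 77 could not be matched to the gene table, and the probe table does not list 8730. The file names no build, so no coordinates are given.

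The test was limma 3.58.1 in R 4.3.3 (lmFit, eBayes), rns2-2 minus Col-0, two-sided, with Benjamini-Hochberg adjustment over 22746 probe sets, threshold 0.05, no dim filter and no replicate block. SD is over 3 arrays, and the SE and interval are from limma. The number of arrays limits the precision. P-values take the 3 samples of a genotype as independent. The members, lists, alternatives and the rule for named genes (all members, XTH synonyms, up to 4 genes per list by p, 3 like profiles for XTH16 and XTH20) were chosen with earlier results of these data known. Counts and medians of the lists without replicate 1 were added after the data were seen.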

Additional observations from a re-analysis of the deposited data

How the results depend on the processing

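The count of XTH genes past the threshold was 0 of 9 with limma (unadjusted, 2 had p under 0.05) and stayed at 0 in 17 of 18 alternatives; it was 3 with replicates 2 and 3 only, namely XTH18, XTH19 and XTH20. The count of XTH genes above 0 was 7, and it was 5 without replicate 1 of rns2-2 and 6 with replicates 2 and 3 only, both chosen after seeing the data. The count over all probe sets was 1, and became 435 with array weights, 3262 with replicates 2 and 3 only, 328 by an unadjusted p under 0.05 plus a change of at least 2-fold, and 0 with replicates 2 and 3 averaged (limma, lowest adjusted p 0.1001, unadjusted, 895 had p under 0.05). Leaving out single arrays gave 1 to 333, with 333 when replicate 1 of Col-0 was left out and 32 when that of rns2-2 was. XTH32 changed sign with array weights (-0.039) and with replicates 2 and 3 only (-0.40), and ran from -0.49 to 1.08 without single arrays. XTH33 ran from -0.045 to 0.41 without single arrays. The signs of the other 7 genes held in all alternatives run. The cause of the changes in counts and signs was not tested. Over all probe sets, the deviations from the genotype mean correlated weakly between same-numbered arrays, at 0.06, -0.06 and 0.14 for replicates 1, 2 and 3. Replicate 1 still stood apart in both genotypes, and whether same-numbered arrays shared a batch was not tested. With the replicate block, 0 XTH genes and 1 probe set passed; XTH19 kept 1.17 with an SE of 0.30 (limma adjusted p = 0.503). Each XTH locus had 1 probe set, so averaging probe sets gave nothing to compare. The range over alternatives was 0.40 to 0.91 for XTH16 (limma adjusted p 0.147 to 0.935) and 0.66 to 1.23 for XTH20 (0.00341 to 0.935).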
